A study of Rattus norvegicus with 10 samples.

Results

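The potassium channel genes were taken as every gene of the deposited count table whose symbol starts with Kcn, a subfamily letter or letters and a number. The rule found 90 of the 17168 genes in the table. The tissue was left hippocampus from 10 male TgF344-AD rats, perfused with saline at 11 months of age, and the assay was RNA sequencing. TgF344-AD rats carry transgenes that include mutant human APP, driven by the mouse prion promoter, and are used as a model of Alzheimer's disease; every rat of both groups was transgenic. The 5 untreated rats ate plain rodent chow, and the other 5 ate chow with 750 mg of RG2833 per kg, a drug that blocks HDAC1 and HDAC3, from 5 months of age for 6 months. One sentence of the design text names ibudilast in place of RG2833; the title and every sample's treatment label name RG2833, which was followed. Each library is named as 1 rat; shared litters, cages or preparation batches are not given in the sources used here.

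Potassium channels let potassium leave the cell and so set the resting potential, end action potentials and limit repetitive firing. The pore-forming subunits fall into voltage-gated channels (Kcna, Kcnb, Kcnc, Kcnd, Kcnh, Kcnq), silent subunits that modify them (Kcnf, Kcng, Kcns, Kcnv), channels opened by calcium or sodium inside the cell (Kcnma, Kcnn, Kcnt), inward rectifiers (Kcnj) and 2-pore leak channels (Kcnk). Kcnab, Kcnip, Kcne and Kcnmb encode auxiliary subunits. In the hippocampus Kv1, Kv4 and Kv7 channels shape pyramidal and granule cell firing, Kv3 channels support fast-spiking interneurons, and the Kcnj10 channel in astrocytes takes up potassium released by neurons.

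Total expected counts ran from 15118203 to 18533520 per library. Values are CPM, counts relative to library sizes adjusted by edgeR's TMM scaling, where 1 count was worth 0.0512 to 0.0692 CPM. Markers of hippocampal cells that had an entry were read in every library, apart from the granule cell gene Tdo2, at 0 counts in all 10, and the CA3 gene Iyd, with at most 2 counts and 0 in some. The granule cell gene Dsp, the CA3 genes Nectin3 and Col6a1 and the endothelial genes Slco1a4 and Ly6c1 had no entry under these symbols. Choroid plexus markers, which do not belong to the hippocampus proper, summed to 10986 CPM in untreated replicate 2 and 11886 CPM in RG2833 replicate 1, against 112.89 to 472.66 CPM in the other 8 libraries. Much of the sum in those 8 was the marker Enpp2, at 90.8 to 186 CPM. CPM is not divided by transcript length, so levels are compared between libraries and not between genes.

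Of the 90 members, 80 had enough reads to be tested; their counts summed over the 10 libraries ran from 107 to 67981, with a median of 3156. The other 10 were Kcna10, Kcne1, Kcne3, Kcne4, Kcnj1, Kcnk18, Kcnmb1, Kcnmb3, Kcnq1 and Kcnv2. Kcnq1 reached 133 counts in a library and the remaining 9 at most 19. Kcne1, an auxiliary subunit, had 0 counts in every library, which allows up to 3 counts, or 0.154 to 0.208 CPM, in each. The CPM of all 90 members together was 3671 ± 461 in untreated and 3836 ± 350 in the treated rats (mean ± SD, n = 5 each), with overlapping ranges of 2941 to 4145 and 3469 to 4355.

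The stretch upstream of the start site is shown for 4 members on which the results turn: Kcnj10, the inward rectifier with the widest log2 difference between groups among members at an unadjusted p under 0.05; Kcnd2 and Kcnt1, which sat at opposite ends in the same library; and Kcnj13, which was high in the choroid-rich libraries. They are the 250 bases before the start, 5′ to 3′, from RefSeq on GRCr8, with the dinucleotide CG in capitals. The positions are chr13:87334260-87334509 on the plus strand for Kcnj10, chr4:50742235-50742484 on the plus strand for Kcnd2, chr3:29081089-29081338 on the plus strand for Kcnt1 and chr9:95518987-95519236 on the minus strand for Kcnj13.
Kcnj10: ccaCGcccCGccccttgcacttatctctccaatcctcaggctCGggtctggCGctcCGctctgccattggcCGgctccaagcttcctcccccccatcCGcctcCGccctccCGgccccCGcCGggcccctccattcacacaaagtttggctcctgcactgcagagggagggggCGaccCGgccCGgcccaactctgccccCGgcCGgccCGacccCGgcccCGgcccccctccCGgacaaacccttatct
Kcnd2: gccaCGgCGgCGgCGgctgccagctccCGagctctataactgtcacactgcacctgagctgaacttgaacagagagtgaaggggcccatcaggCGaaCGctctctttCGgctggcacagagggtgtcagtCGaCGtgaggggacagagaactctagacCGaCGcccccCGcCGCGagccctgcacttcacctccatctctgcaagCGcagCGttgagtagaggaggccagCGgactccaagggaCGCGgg
Kcnt1: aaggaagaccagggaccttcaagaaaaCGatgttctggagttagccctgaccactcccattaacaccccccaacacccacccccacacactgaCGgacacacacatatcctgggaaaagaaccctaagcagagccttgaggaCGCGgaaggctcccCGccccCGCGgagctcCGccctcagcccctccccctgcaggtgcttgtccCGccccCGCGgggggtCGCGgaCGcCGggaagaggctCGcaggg
Kcnj13: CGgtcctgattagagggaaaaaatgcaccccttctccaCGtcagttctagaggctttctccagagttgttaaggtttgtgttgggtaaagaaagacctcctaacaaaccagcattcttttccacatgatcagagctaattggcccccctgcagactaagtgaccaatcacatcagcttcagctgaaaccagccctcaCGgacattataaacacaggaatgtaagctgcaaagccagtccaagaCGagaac
The stretch of Kcnj10 and that of Kcnd2 hold 20 CG each, more than 82.0% of all promoters in the table. That of Kcnt1 holds 16, more than 74.2%, and that of Kcnj13 holds 4, more than 36.1%. Of the members, 62 had an entry, and 34 of these (54.8%) held at least 10 CG, against 38.4% of all 27457 promoters. CG was searched on 1 strand, since it reads the same on both.

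The comparison of RG2833 with untreated asked whether the drug changed expression in transgenic males. No potassium channel gene passed it. In edgeR's quasi-likelihood test 0 of the 80 tested members had an adjusted p under 0.05, as did 0 of all 12161 genes tested (0%); DESeq2 called 0 members and 7 genes in all, and limma-voom called 0 of either. At an unadjusted p under 0.05 there were 5 members (6.25%), against 5.66% of all genes. Of these, 4 were higher in RG2833 (Kcnj10, Kcng4, Kcnj14 and Kcna2), where the share over all genes was 2.94%, and 1 was lower (Kcnh6), where it was 2.71%. The members' median log2 fold change was 0.05, with 45 higher (56.2%) and 35 lower, and that of all genes tested was -0.01, with 46.5% higher. The members' median rested on single libraries: it was 0.02 without untreated replicate 2, 0.02 without untreated replicate 3 and -0.00117, with 40 higher, without RG2833 replicate 3. In limma-voom it was 0.00982, also with 40 higher. The members varied more between libraries than genes in general, with a median coefficient of variation of 24.1% over the 10 libraries, against 13.3% for all genes tested. For 48 of the 80 the highest library was over 2 times the lowest. The median standard error of a member's log2 fold change was 0.21.

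**Figure D1:**
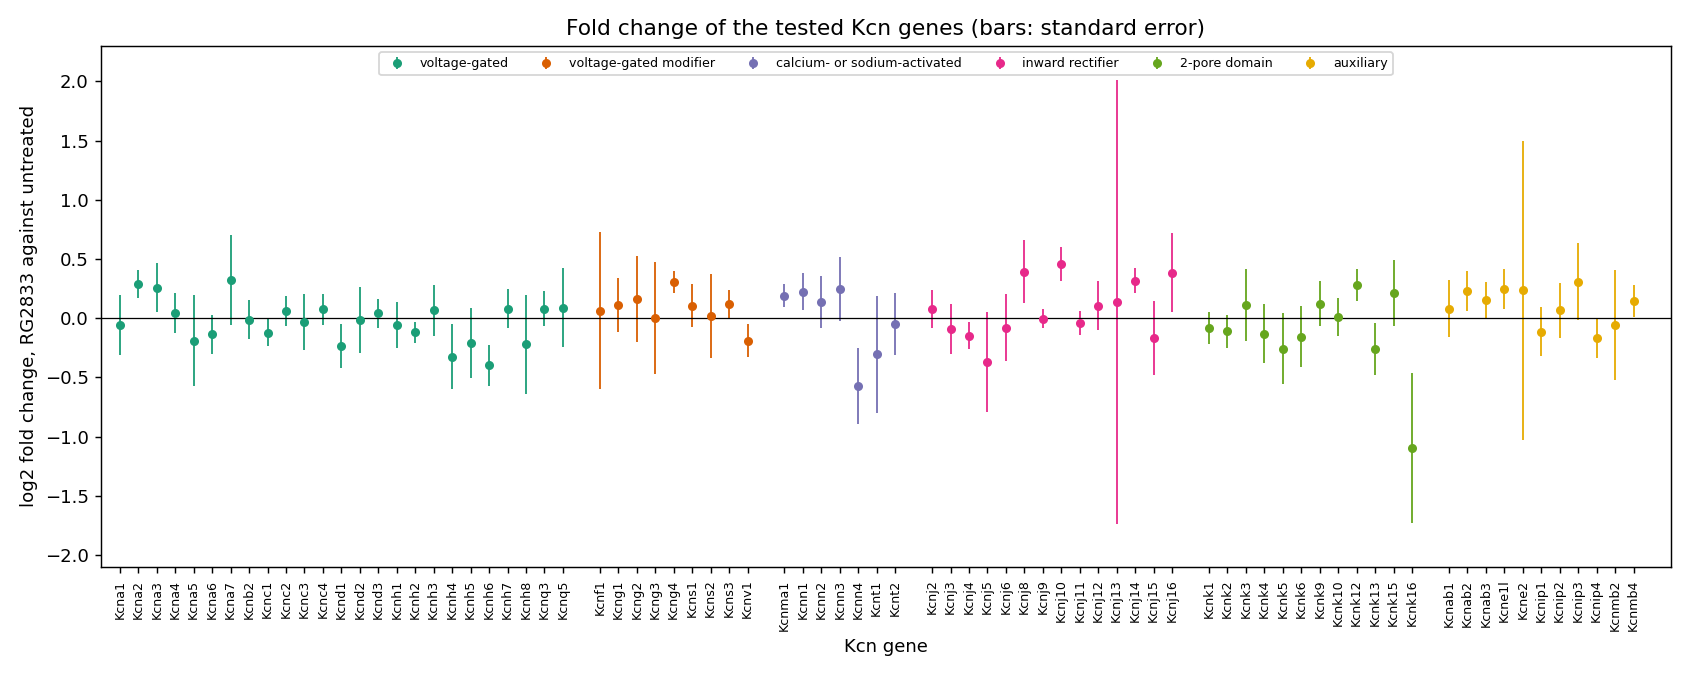
Log2 fold change of RG2833 against untreated (vertical axis) for 78 of the 80 tested Kcn genes (horizontal axis), coloured by role; points are edgeR estimates and bars 1 standard error. The points lie between -1.10 (Kcnk16) and 0.46 (Kcnj10), and the bars of Kcnj13 and Kcne2 are the longest.

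Among the inward rectifiers 7 of 14 tested members were higher and 7 lower, with a median log2 fold change of 0.04. Kcnj10, the main astrocyte potassium channel, read 51.3, 45.2, 60.0, 60.0 and 57.4 CPM in untreated replicates 1 to 5 and 56.3, 66.8, 70.0, 87.4 and 96.5 CPM in RG2833 replicates 1 to 5. Of the RG2833 values 4 lay above every untreated value, and RG2833 replicate 1 lay inside the untreated range. The log2 fold change was 0.46 (SE 0.14; edgeR unadjusted p = 0.00884, adjusted p = 0.841; two-sided exact permutation p = 0.0317, n = 5 each). Astrocyte markers stood beside this: all 10 of the list had higher means in RG2833, 2 at an unadjusted p under 0.05, and their summed level was 6900 to 10740 CPM in the untreated and 7976 to 11770 CPM in the treated rats. More astrocytes in a sample and more RNA per astrocyte cannot be told apart in bulk tissue, here or for any gene below.

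Over the 10 libraries Kcnj10 followed the mean of the astrocyte markers (Pearson r = 0.88, permutation p = 0.00024, adjusted p = 0.00144; Spearman rho = 0.89, permutation p = 0.0011, adjusted p = 0.0066). Without RG2833 replicates 4 and 5, the libraries farthest from the median of the markers, r was 0.79. Kcnj16, which forms joint channels with Kcnj10 in astrocytes, had a log2 fold change of 0.39 (SE 0.33; edgeR adjusted p = 0.915); leaving out untreated replicate 3 gave 0.72, and leaving out RG2833 replicate 4 gave 0.20. It ran from 15 to 51.2 CPM in the untreated and from 22.3 to 54.4 CPM in the treated rats, and its lowest value fell in untreated replicate 2, where the astrocyte markers were also lowest. Its r with the astrocyte markers was 0.89 (permutation p = 0.00087, adjusted p = 0.00261) and its rho 0.84 (permutation p = 0.00393, adjusted p = 0.00924), with r = 0.88 without the same libraries. The permutations mixed both groups and r within a group was not computed, so a shared group difference is part of these values. How much of the Kcnj10 difference goes with the astrocyte markers was not tested.

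Kcnj14, a strong inward rectifier of neurons, read 15.3, 16.6, 14.0, 14.7 and 16.1 CPM in the untreated and 14.7, 19, 20.3, 21.2 and 20.5 CPM in RG2833 replicates 1 to 5. RG2833 replicate 1 was again inside the untreated range and the other 4 were above it. Its log2 fold change was 0.32 (SE 0.10; edgeR unadjusted p = 0.0106, adjusted p = 0.841; exact permutation p = 0.0397). Of the G-protein-gated channels that carry slow inhibition, Kcnj9 was the steadiest member, with a coefficient of variation of 7.89% over the libraries and a log2 fold change near 0 (SE 0.08). Kcnj3 was at 44.0 ± 11.6 CPM in the untreated and 41.3 ± 9.86 CPM in the treated rats (n = 5 each). Kcnj6 was at 310 ± 97.1 and 294 ± 95.7 CPM. Both had their lowest value in untreated replicate 3. The pore subunits of ATP-sensitive channels, Kcnj11 and Kcnj8, had log2 fold changes of -0.04 (SE 0.10) and 0.39 (SE 0.27), with an edgeR adjusted p of 0.980 and 0.871. The value of Kcnj8 was 0.18 without RG2833 replicate 5. Kcnj8 marks pericytes and smooth muscle in brain vessels. It followed the mural markers over the libraries (r = 0.85, permutation p = 0.00192, adjusted p = 0.00384; rho = 0.83, permutation p = 0.00462, adjusted p = 0.00924), and r was 0.84 without untreated replicate 3 and RG2833 replicate 5. Relations with other marker lists were not computed, so neither this relation nor those of Kcnj10 and Kcnj16 singles out a cell type.

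**Figure D2:**
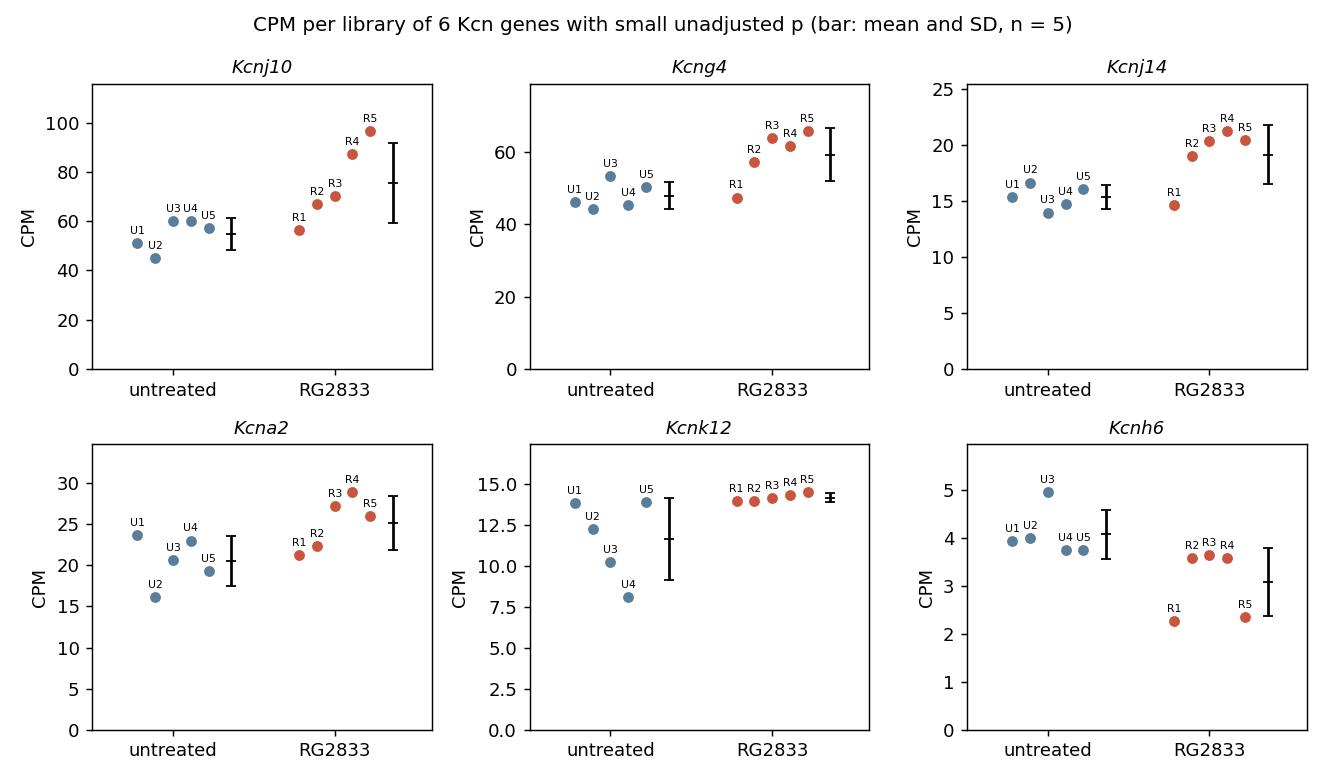
CPM (vertical axis) of 6 Kcn genes in each untreated (U1 to U5) and RG2833 (R1 to R5) library; each point is 1 rat, and the bar beside each group is the mean and SD (n = 5). Kcnj10 reached 96.5 CPM in RG2833 replicate 5 against an untreated maximum of 60.0, and R1 lies among the untreated points for Kcnj10, Kcng4 and Kcnj14.

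Of the voltage-gated pore subunits 13 of 27 tested were higher and 14 lower, with a median log2 fold change of -0.01. Kcna2, a Kv1 subunit of axonal channels, read 23.7, 16.2, 20.7, 23.0 and 19.3 CPM in the untreated and 21.3, 22.3, 27.2, 28.9 and 26.0 CPM in RG2833 replicates 1 to 5. All 5 RG2833 values were above the untreated mean and the ranges overlapped. The log2 fold change was 0.29 (SE 0.12; edgeR unadjusted p = 0.0354, adjusted p = 0.841; exact permutation p = 0.0635). Of its frequent partners, Kcna1 had a log2 fold change of -0.06 (SE 0.25) and Kcna4 one of 0.04 (SE 0.17).

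Kcnh6, an Erg channel, was lower, with 3.92, 4, 4.95, 3.73 and 3.75 CPM in the untreated and 2.26, 3.58, 3.65, 3.57 and 2.35 CPM in RG2833 replicates 1 to 5. The groups did not overlap. This held for 2 of the 80 tested members (2.50%), the other being Kcnk12, against 1.00% of all genes. The log2 fold change of Kcnh6 was -0.40 (SE 0.18; edgeR unadjusted p = 0.0454, adjusted p = 0.841). The exact permutation p of 0.00794, the smallest the design allows, follows from the lack of overlap and adds nothing to it. Kcnh2, the Erg channel best known from the heart, was at 34.7 ± 3.82 CPM in the untreated and 31.9 ± 2.37 CPM in the treated rats (a log2 fold change of -0.12, SE 0.09). In the Kcnh subfamily 6 of 8 members were lower and 2 higher; Kcnh7 was among the latter (a log2 fold change of 0.08, SE 0.16).

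Kcnq3 and Kcnq5, subunits of the M-current, which holds back repetitive firing, had log2 fold changes of 0.08 (SE 0.15) and 0.09 (SE 0.33). Neither passed (edgeR adjusted p of 0.966 and 0.988). The Kv3 channels of fast-spiking interneurons, Kcnc1 and Kcnc2, had log2 fold changes of -0.12 (SE 0.12) and 0.06 (SE 0.13). Neither had a relation with the interneuron markers that passed: r was 0.24 for Kcnc1 (permutation p = 0.499, adjusted p = 0.499; rho = 0.15, permutation p = 0.684, adjusted p = 0.684) and 0.65 for Kcnc2 (permutation p = 0.056, adjusted p = 0.0672; rho = 0.27, permutation p = 0.448, adjusted p = 0.538). Without untreated replicates 2 and 3 these r were 0.59 and 0.46. Of the Kv4 channels, which carry the dendritic A-current, Kcnd2 and Kcnd3 had log2 fold changes of -0.02 (SE 0.28) and 0.04 (SE 0.12).

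Of the silent subunits 8 of 9 tested were higher and 1 lower, with a median log2 fold change of 0.11. Over all genes tested the share higher was 46.5%. Those higher include values near 0 with wide errors, such as Kcns2 at 0.02 (SE 0.35) and Kcnf1 at 0.07 (SE 0.66). Kcng4, a modifier of Kv2 channels, read 46.1, 44.3, 53.3, 45.4 and 50.2 CPM in the untreated and 47.4, 57.1, 63.8, 61.6 and 65.7 CPM in RG2833 replicates 1 to 5. As for Kcnj10 and Kcnj14, all RG2833 values but that of replicate 1 were above the untreated range. Its log2 fold change was 0.30 (SE 0.09), and its unadjusted p was the smallest of all members (edgeR unadjusted p = 0.0078, adjusted p = 0.841; exact permutation p = 0.0238). The member that was lower was Kcnv1, at 27.5 ± 4.59 CPM in the untreated and 24.1 ± 3.85 CPM in the treated rats (a log2 fold change of -0.19, SE 0.14).

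Among the channels opened by calcium or sodium, 4 of 7 were higher and 3 lower. Kcnma1, the BK channel that speeds spike repolarization, was at 66.1 ± 9.64 CPM in the untreated and 75.5 ± 5.75 CPM in the treated rats, and all 5 RG2833 values were above the untreated mean (a log2 fold change of 0.19, SE 0.10; edgeR adjusted p = 0.841). The SK channels of the afterhyperpolarization, Kcnn1, Kcnn2 and Kcnn3, had log2 fold changes of 0.22 (SE 0.16), 0.14 (SE 0.22) and 0.25 (SE 0.27). Kcnn4, the intermediate-conductance channel, had one of -0.57 (SE 0.32) at no more than 1.19 CPM in any library. For Kcnt1, the sodium-activated Slack channel, the log2 fold change was -0.30 (SE 0.49) with all libraries and 0.45 when untreated replicate 3 was left out.

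Of the 2-pore channels 5 of 12 were higher and 7 lower, with a median log2 fold change of -0.10. Kcnk12 read 13.85, 12.24, 10.27, 8.08 and 13.90 CPM in the untreated and 13.94, 13.97, 14.14, 14.34 and 14.52 CPM in RG2833 replicates 1 to 5. The groups did not overlap, although the gap between them was far smaller than the untreated range, and the RG2833 values lay unusually close together. Its log2 fold change was 0.28 (SE 0.14; edgeR unadjusted p = 0.0653, adjusted p = 0.841; exact permutation p = 0.00794, the smallest possible). This exact p again only restates the lack of overlap. Kcnk16 had the lowest log2 fold change of all members, -1.10 (SE 0.63), at 0.07 to 1.59 CPM. Kcnk1 and Kcnk2, leak channels of neurons and astrocytes, had log2 fold changes of -0.08 (SE 0.13) and -0.11 (SE 0.14). Kcnk13, the tonic channel of microglia, had one of -0.26 (SE 0.22). Its r with the microglia markers was 0.64 (permutation p = 0.0507, adjusted p = 0.0672; rho = 0.53, permutation p = 0.123, adjusted p = 0.184) and 0.30 without untreated replicate 3 and RG2833 replicate 5, so what relation there was rested on those libraries.

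The auxiliary subunits had 8 of 11 tested members higher and 3 lower, with a median log2 fold change of 0.14, where 46.5% of all genes tested were higher. Kcnab2, a cytoplasmic beta subunit of Kv1, was at 374 ± 85.5 CPM in the untreated and 437 ± 66.3 CPM in the treated rats (a log2 fold change of 0.23, SE 0.17; edgeR adjusted p = 0.898). Kcnab1 had a log2 fold change of 0.08 (SE 0.24). Kcnip4, a calcium-binding partner of Kv4, was at 21.7 ± 4.62 and 19.4 ± 3.43 CPM (a log2 fold change of -0.16, SE 0.17). The BK beta subunits of the brain, Kcnmb4 and Kcnmb2, had log2 fold changes of 0.14 (SE 0.14) and -0.06 (SE 0.46). Outside the members, 53 genes that anchor, assemble with, signal to or are related to these channels were listed, of which 48 were tested. Of these partner genes 25 were higher and 23 lower, from -0.38 to 0.34 on the log2 scale, with 0 at an adjusted p and 0 at an unadjusted p under 0.05 in edgeR, where the latter share over all genes was 5.66%.

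The widest differences among the members were between rats and cut across the groups. Untreated replicate 3 held the lowest value of the 10 libraries for 26 of the 80 tested members and the highest for 16, together 52.5% of them. Over all genes tested that library held the highest or lowest value for 43.3%. For 14 of the 26 members the next lowest libraries were RG2833 replicates 4 and 5, and for 7 of the 16 these were the next highest.

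**Figure D3:**
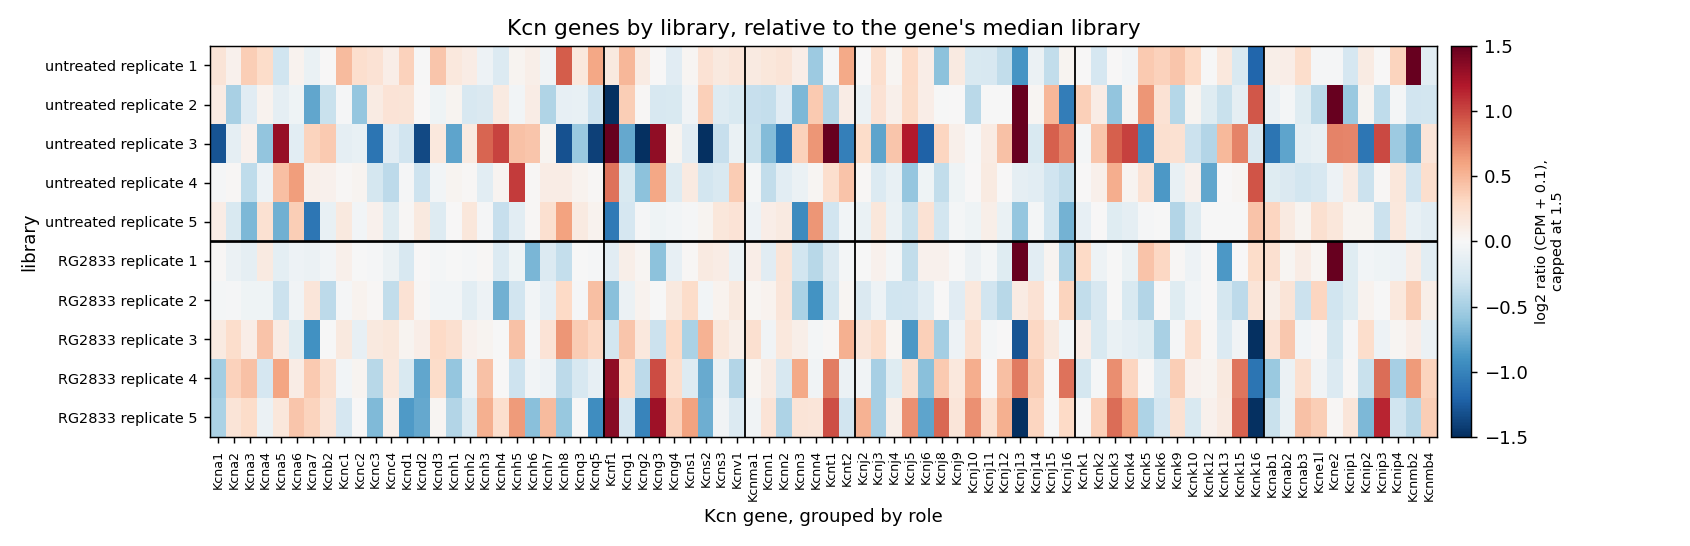
Of the 80 tested Kcn genes, 78 (columns, grouped by role between the vertical lines) in each library (rows; untreated above the horizontal line, RG2833 below); colour is the log2 ratio of CPM + 0.1 to the gene's median library plus 0.1, capped at 1.5 either way. The row of untreated replicate 3 has the most cells at the cap, among them Kcnt1 and Kcnf1 high; Kcnd2 and Kcnj6 are low there without reaching it, and RG2833 replicates 4 and 5 share these directions.

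The members lowest in untreated replicate 3 include channels of dendrites, axons and slow inhibition. Kcnd2, the A-current channel of dendrites, read 139, 140, 54.6, 113 and 154 CPM in untreated replicates 1 to 5 and 140, 141, 149, 81.4 and 81.7 CPM in RG2833 replicates 1 to 5. Kcnj6 read 354, 354, 142, 316 and 384 CPM in the untreated and 345, 296, 424, 213 and 191 CPM in RG2833. Kcna1 read 57.1, 54.3, 20.2, 49.3 and 54.1 CPM in the untreated and 50.7, 49.1, 54.9, 35.1 and 36 CPM in RG2833. In all 3 genes untreated replicate 3 was lowest and RG2833 replicates 4 and 5 came next. Kcnab1 read 56.9 CPM in untreated replicate 3, 83.0 and 96.5 CPM in RG2833 replicates 4 and 5 and at least 107 CPM in the others. Kcnq5 and Kcnn2 were also lowest there, at 40.8 and 9.97 CPM. Over the 26 members, the value in untreated replicate 3 was from 0.23 to 0.84 of the median of the other 9 libraries, with a median of 0.50.

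Other members ran the opposite way. Kcnt1 read 12.6, 9.37, 52.9, 15.2 and 10.4 CPM in the untreated and 11.0, 10.5, 13, 21.8 and 25.1 CPM in RG2833 replicates 1 to 5. Kcnf1, a silent subunit that pairs with Kv2, read 15.7, 3.53, 50.1, 24.9 and 6.73 CPM in the untreated and 12.6, 9.09, 11.7, 35.8 and 36.4 CPM in RG2833. In both genes untreated replicate 3 was highest, followed by RG2833 replicates 5 and 4. Over the 16 members highest in untreated replicate 3, the value there was 1.33 to 4.21 times the median of the other 9, with a median of 1.95.

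Markers of several cell types moved with these libraries. Markers of CA3, astrocytes, microglia, oligodendrocyte precursors and endothelium, both as sums and as mean log2 levels, set untreated replicate 3 and RG2833 replicates 4 and 5 apart from all other libraries. The granule cell markers had their lowest summed level, 211 CPM, in untreated replicate 3, against 233 to 374 CPM in the other libraries, and RG2833 replicates 4 and 5 did not stand apart, at 243 and 262 CPM. Single granule cell genes went opposite ways in untreated replicate 3: Prox1 read 4.30 CPM, against 21.5 to 50.5 CPM elsewhere, and C1ql2 read 7.10 CPM, against 38.2 to 142 CPM, while Calb1 was highest there, at 90.6 CPM against 65.7 to 80.3 CPM. On the mean log2 scale that library stood apart by a gap of 0.575 of the range, so no correlation of Kcnd2 with these markers was computed. The CA3 markers summed to 96.4 CPM in untreated replicate 3, 147 and 133 CPM in RG2833 replicates 4 and 5, and 202 to 236 CPM elsewhere. Microglia markers summed to 1062 CPM in untreated replicate 3, 811 and 856 CPM in RG2833 replicates 4 and 5, and 570 to 699 CPM in the other 7. Astrocyte markers summed to 10742, 11610 and 11770 CPM in these 3 libraries and 6900 to 10203 CPM in the rest. Oligodendrocyte precursor markers summed to 376, 336 and 378 CPM, against 237 to 279 CPM. Endothelial markers summed to 565, 501 and 609 CPM, against 286 to 397 CPM. Striatal and neocortical markers were also highest there as sums but not as mean log2 levels, and single neocortical genes went opposite ways: Cux2 read 141, 92.4 and 106 CPM, against 28.3 to 59.9 CPM, and Rasgrf2 read 34.7, 58.6 and 44.3 CPM, against 80.6 to 108.9 CPM. Their part in the channel values was not tested.

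**Figure D4:**
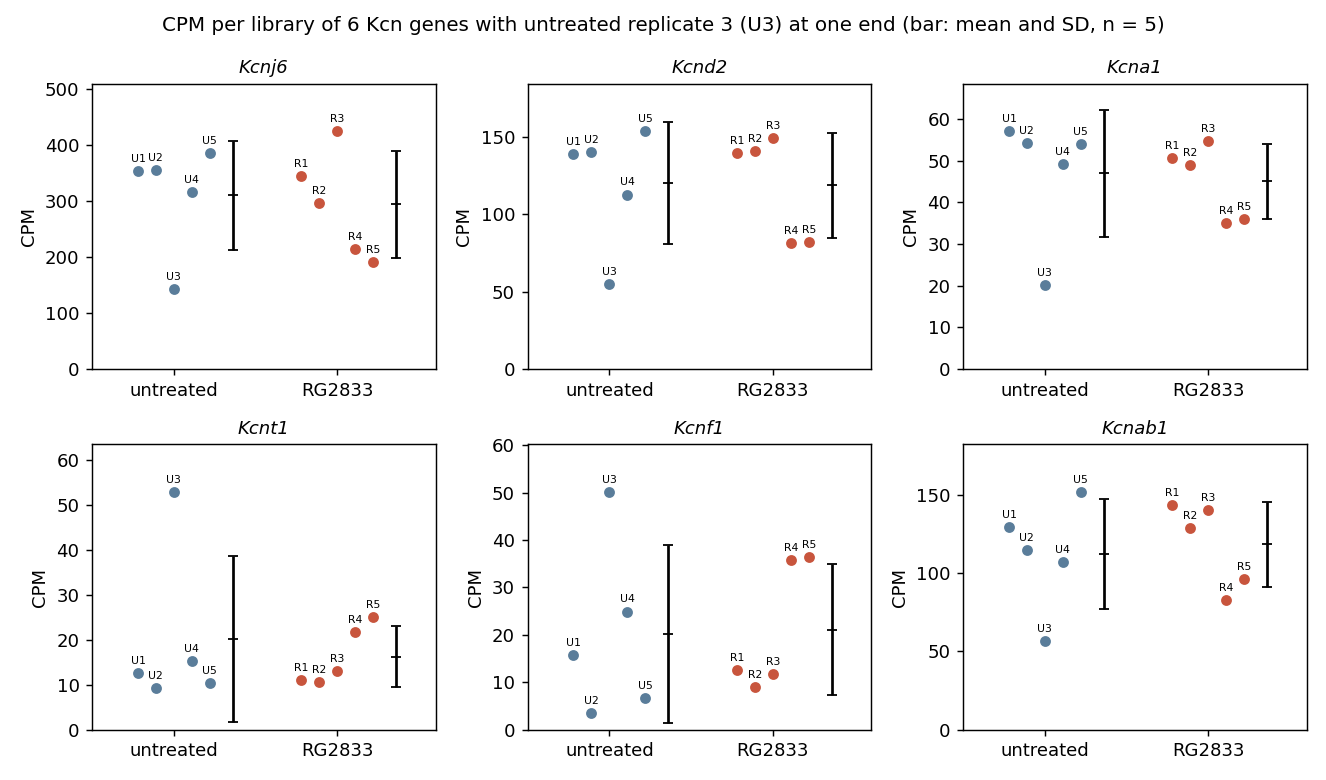
CPM (vertical axis) of 6 Kcn genes in each untreated (U1 to U5) and RG2833 (R1 to R5) library; each point is 1 rat, and the bar beside each group is the mean and SD (n = 5). U3 is lowest for Kcnj6, Kcnd2, Kcna1 and Kcnab1 and highest for Kcnt1 (52.9 CPM) and Kcnf1 (50.1 CPM), and R4 and R5 lie on the same side of the other RG2833 points.

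A further set of members followed the choroid plexus, the epithelium that secretes cerebrospinal fluid. Kcnj13, a channel of transporting epithelia, read 0.29, 97.5, 3.88, 0.55 and 0.38 CPM in untreated replicates 1 to 5 and 112, 0.68, 0.19, 1.13 and 0.14 CPM in RG2833 replicates 1 to 5. Kcne2, an auxiliary subunit made in choroid plexus, read 2.37, 46.8, 4.06, 2.27 and 2.71 CPM in the untreated and 60.6, 1.93, 1.98, 2.07 and 2.42 CPM in RG2833. Kcnq1, an epithelial channel that pairs with Kcne2, was left out of the test for low counts and is described because of its values. It read 6.81 CPM in untreated replicate 2, 6.84 CPM in RG2833 replicate 1 and 0.19 to 0.61 CPM in the others. All 3 genes were high in the 2 libraries with the most choroid plexus RNA and in no other.

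The transthyretin gene Ttr, a marker of that tissue, was at 6929 and 8190 CPM in the same 2 libraries and at 3.11 to 236 CPM in the other 8. As 1 such library fell in each group, the log2 fold changes of Kcnj13 and Kcne2 were 0.14 (SE 1.87) and 0.23 (SE 1.26). They were 4.16 and 2.27 without untreated replicate 2, and -5.22 and -2.48 without RG2833 replicate 1. Because 2 libraries stood apart, no correlation with the choroid plexus markers was computed.

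**Figure D5:**
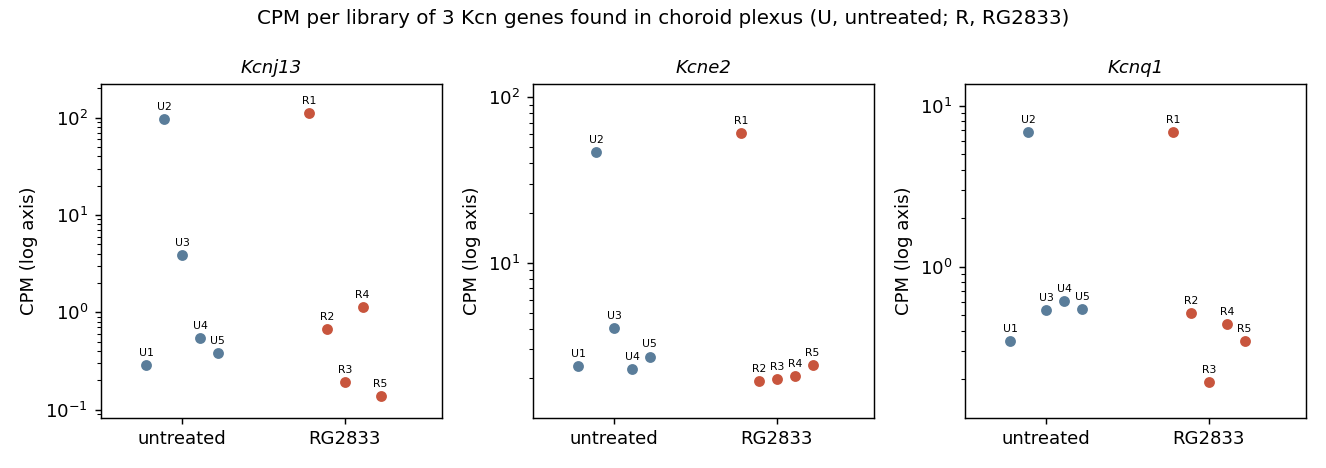
CPM on a log axis (vertical) of Kcnj13, Kcne2 and Kcnq1 in each untreated (U1 to U5) and RG2833 (R1 to R5) library; each point is 1 rat. U2 and R1 lie far above the other points for all 3 genes, at 97.5 and 112 CPM for Kcnj13.

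In each of the 19 alternative settings 0 members passed the adjusted threshold. Over all genes tested 31 passed it with 2 surrogate variables, 7 in DESeq2 and 0 in the other settings. The count at an unadjusted p under 0.05 was 18 (22.5%, against 15% of all genes) in a fit with 2 surrogate variables and 3 (3.75%, against 3.47%) without RG2833 replicate 5. In other settings the members' share was below that of all genes: it was 7.50% against 14.2% without untreated replicate 3, and 6.25% against 10.4% in limma-voom. Kcnj10, Kcng4 and Kcnj14, the members with the smallest unadjusted p, were among that count in all 19 alternatives, Kcna2 in 12 and Kcnh6 in 10. The alternatives reuse the same rats, and the like count over all genes was not made.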

How the data were processed

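Per the labels' protocols, column-purified RNA from 10 left hippocampi went into stranded mRNA libraries. The authors deposited RSEM expected counts per gene. The submitters' processing notes name bcl2fastq 2.17, Bowtie2 2.1.0, RSEM 1.2.15, edgeR and the build rn6; the annotation and the strand setting of the counting are not given in the sources used here, so genes that overlap another are uncertain. The deposited table of scaled values was not used. Expected counts, 11.6% of them not whole, were rounded and tested with edgeR 4.0.16 in R 4.3.3: filterByExpr (minimum count 10, total 15) kept 12161 genes, libraries were scaled by TMM, and the robust quasi-likelihood F test was adjusted by Benjamini-Hochberg over all of them (threshold 0.05). Standard errors came from the F statistic. Exact permutation tests were two-sided over all 252 regroupings of log2 CPM (prior count 2). Of 9 relations of members with mean marker log2 CPM, 6 were given r and rho with 100000 resamples, adjusted over the 6; a gap above 0.5 of the range counted as separate libraries. Member CPM in these relations had 0.1 added before the log. The fit was tested on simulated counts. No 2 libraries agreed within sampling noise (chi-square per gene at least 7.38).

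Members, lists and tests were chosen with earlier results of these data known. Named members were a set fixed by role, the 5 smallest unadjusted p in each direction, members without overlap between groups, and members with a library at least 3 times their median; Kcnq1 and those in the other observations were named after their values were seen. Values of 2 named members are not reported here. Some markers are in more than 1 list: Prkcd (CA3, thalamus), Lamp5 (interneuron, neocortex) and Cspg4 (oligodendrocyte precursor, mural). Alternatives were 2 other scalings, no filter and a stricter one (30 counts in 5 libraries), DESeq2 1.42.0, limma 3.58.1 voom with sample weights, 2 surrogate variables (sva 3.50.0), the replicate number as a block, each library left out, and both choroid-rich libraries left out. All 90 members matched the RefSeq GRCr8 gene table, used for names and promoters only. The other marker lists gave these counts of tested genes higher and lower in RG2833: oligodendrocyte 2 and 8, oligodendrocyte precursor 5 and 0, endothelium 6 and 2, mural 6 and 4, microglia 7 and 3, choroid plexus 6 and 7, dentate granule 1 and 4, CA1 6 and 2, CA3 0 and 5, interneuron 4 and 8, thalamus 2 and 5, striatum 4 and 4, neocortex 3 and 4, and red blood cell 0 and 3.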

Additional observations from a re-analysis of the deposited data

Results flagged for a closer look

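Within each group of 5 rats, the highest or lowest value of each named member was compared with the others, and 10 of 86 sets had a gap to the nearest value above 0.71 of the range, where chance gives about 4.3 (1 in 20). Some members were named because a library stood high, so this count is not independent of the naming. In untreated replicate 3, Kcna1 was at 20.2 CPM against 49.3 to 57.1 in the other untreated rats, Kcnj6 at 142 CPM against 316 to 384, Kcnt1 at 52.9 CPM against 9.37 to 15.2, and Kcnh6 at 4.95 CPM against 3.73 to 4. In untreated replicate 2, Kcnj13 was at 97.5 CPM against 0.289 to 3.88, Kcne2 at 46.8 CPM against 2.27 to 4.06, and Kcnk1 at 91.0 CPM against 65.1 to 71.6. Kcnk1 was next highest in RG2833 replicate 1, at 87.6 CPM, and read 55.2 to 76.0 CPM in the libraries outside these choroid-rich ones. In RG2833 replicate 1, Kcnj13 was at 112 CPM against 0.138 to 1.13 and Kcne2 at 60.6 CPM against 1.93 to 2.42. Kcnmb2 was at 2.37 CPM in untreated replicate 1 against 0.418 to 0.706.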

How the results depend on the processing

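No member passed the adjusted threshold under any of the 19 alternatives, while over all genes 31 passed with 2 surrogate variables, 7 in DESeq2 and 0 in the others; the smallest adjusted p of a named member was 0.0872, for Kcnab2. The count at an unadjusted p under 0.05 was 18 with 2 surrogate variables and from 3 to 7 with 1 library left out, and 5 otherwise, while the share over all genes ran from 3.07% without RG2833 replicate 4 to 15% with 2 surrogate variables; it was 14.2% without untreated replicate 3, 10.4% in limma-voom and 3.3% with the replicate block. The count was 3 without RG2833 replicate 5 and 7 without untreated replicate 1. Of the 43 named members, 23 kept the sign of their log2 fold change throughout and 20 changed it at least once, in 70 of 812 values. With 1 library left out, the log2 fold changes of those that changed sign there ran -0.249 to 0.0227 for Kcna1, -0.0731 to 0.119 for Kcna4, -0.0866 to 0.216 for Kcnab1, -0.0454 to 0.153 for Kcnc2, -0.198 to 0.0966 for Kcnd2, -0.0164 to 0.14 for Kcnd3, -2.48 to 2.27 for Kcne2, -0.225 to 0.729 for Kcnf1, -0.0361 to 0.151 for Kcnh7, -0.103 to 0.0229 for Kcnj11, -5.22 to 4.16 for Kcnj13, -0.259 to 0.0471 for Kcnj6, -0.0428 to 0.0413 for Kcnj9, -0.178 to 0.00468 for Kcnk1, -0.241 to 0.61 for Kcnmb2, -0.0214 to 0.238 for Kcnn2, -0.0236 to 0.146 for Kcnq3, -0.11 to 0.318 for Kcnq5, -0.512 to 0.45 for Kcnt1. Reported members whose sign held but whose lowest or highest such value was over 1.5 times away from the value with all libraries ran 0.103 to 0.303 for Kcnab2, -0.176 to -0.0145 for Kcnc1, -0.185 to -0.0861 for Kcnh2, -0.279 to -0.0794 for Kcnip4, 0.204 to 0.716 for Kcnj16, -0.229 to -0.00313 for Kcnj3, 0.183 to 0.543 for Kcnj8, 0.174 to 0.353 for Kcnk12, -0.354 to -0.126 for Kcnk13, -0.222 to -0.017 for Kcnk2, 0.0762 to 0.218 for Kcnmb4, 0.128 to 0.329 for Kcnn1, 0.0901 to 0.417 for Kcnn3, -0.263 to -0.111 for Kcnv1. With median-of-ratios size factors the log2 fold change was 8e-05 for Kcnj9. With no filter the log2 fold change was 0.000145 for Kcnj9. In limma-voom the log2 fold change was -0.0451 for Kcna4, -0.0247 for Kcnab1, -0.00137 for Kcne2, -0.0423 for Kcnh7, 0.0794 for Kcnmb2, -0.00738 for Kcnq3, 0.1 for Kcnt1. With 2 surrogate variables the log2 fold change was 0.0749 for Kcna1, 0.115 for Kcnd2, -0.0962 for Kcnf1, -0.0307 for Kcnh7, 0.000586 for Kcnj3, 0.0376 for Kcnj6. With the replicate block the log2 fold change was 0.00202 for Kcnd2, -0.362 for Kcne2, -1.22 for Kcnj13, 0.134 for Kcnmb2. Without both choroid-rich libraries the log2 fold change was -0.052 for Kcnc2, -0.448 for Kcne2, -0.0765 for Kcnf1. Kcnj13 was too low to be tested without both choroid-rich libraries. Whether equal replicate numbers mark paired rats is not given in the sources used here. Same-numbered deviations correlated at -0.26, -0.115, -0.487, -0.0339 and -0.195, while those of untreated replicate 2 and RG2833 replicate 1 correlated at 0.745. The latter are the choroid-rich libraries, so these values also reflect differences between single libraries and cannot decide it. With the replicate block 5 members had an unadjusted p under 0.05, as without it. The cause of these changes was not tested. Members under about 1 CPM rest on few counts, and with a median standard error of 0.21 small differences were not detectable.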

Other observations

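Further members outside the named set, chosen after their values were seen, also had untreated replicate 3 away from most libraries. Kcnip3, which encodes a calcium sensor and a partner of Kv4 channels, read 57.5 CPM in untreated replicate 3, 51.8 and 63.8 CPM in RG2833 replicates 4 and 5, and 22.2 to 29.3 CPM in the other 7 libraries. Kcng2 read 17.7 CPM in untreated replicate 3, 37.8 CPM in RG2833 replicate 5 and 49.0 to 84.0 CPM elsewhere. Kcns2, a silent subunit of Kv2 channels, read 4.06 CPM in untreated replicate 3, 7.27 and 7.40 CPM in RG2833 replicates 4 and 5, and 10.2 to 17.8 CPM in the others. Kcnip2, a further partner of Kv4, read 92.1 CPM in untreated replicate 3 and 122 to 234 CPM elsewhere.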
